A study of Mus musculus with 4 samples.

Results

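The genes described here are 33 markers and effector genes of macrophages, measured in whole cochleae of mice with and without outer hair cells (OHCs). They were listed by name as receptors, signalling and phagosome genes of macrophages and microglia, without chemokines, complement and MHC genes. The rule uses no measured value, but the list was drawn up with earlier results of these data known. Of the 33 genes, 31 were measured among 21961 measured genes of the array. The other 2, the transcription factor *Spi1* (PU.1) and the hemoglobin scavenger receptor *Cd163*, had no probe that the scanner software marked as well above background on any array.

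Macrophages live throughout the cochlea, along the spiral ligament, around the vessels of the stria vascularis, among the spiral ganglion neurons and beneath the basilar membrane. They depend on signalling through the CSF1 receptor, bind antibody-coated and damaged material through Fc receptors whose signals run through adaptors with immunoreceptor tyrosine-based activation motifs (ITAMs), engulf it through scavenger receptors and digest it in lysosomes. After loss of hair cells, macrophages are known to gather near the sensory epithelium and take part in the removal of debris. Microglia are the macrophages of the brain, and several of their marker genes are also read in macrophages of the inner ear.

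All 4 groups were B6J mice aged 5 weeks, and RNA of both sexes was pooled. The wild-type (WT) mice were either untreated, DT(-), or were given diphtheria toxin, DT(+). The OHC-TRECK mice, also named *Prestin*-*hDTR*, carried a transgene in which the promoter of *Slc26a5* (prestin) drives a modified human HB-EGF, the receptor for DT, and they came from 1 founder line. They were likewise either untreated or given DT. The dose was 50 μg/kg in both genotypes, and cochleae were taken 7 days after it. The labels state n = 8 for each group, with 4 females and 4 males, and whether these are mice or cochleae is not settled by the sources used here.

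Each group was measured on 1 Agilent array with 1 channel (Cy3), and all 4 arrays lay on 1 slide. With 1 array per group, no difference has a replicate array, no test was made, and precision is limited by the number of arrays. Signals were divided by the 75th percentile of each array and are given on the log2 scale, so that 0 is that percentile. A level compares the arrays for 1 probe and not 1 gene with another. A gene was counted as changed at 2-fold or more. A signal not well above background was raised to the lowest signal well above background on that array, if it lay under it. Such raising makes the fold a lower bound ("at least"). Repeated spots of a probe had a median SD of 0.061 to 0.071 on the log2 scale, over 299 to 311 probes per array, which covers spot error and not the spread between mice. Well above background were 67.0% and 70.6% of all probes on the untreated wild-type and *Prestin*-*hDTR* arrays, but 62.5% and 62.2% on the DT-treated ones. On all 4 arrays, 0 spots were saturated. As a check of the labels, the summed signal of 6 OHC markers was 22.8, 21.2 and 23.2 times the 75th percentile on the 3 control arrays and 4.55 on the DT-treated *Prestin*-*hDTR* array. Most of this sum came from *Ocm*. Against untreated *Prestin*-*hDTR* mice, *Ocm* and *Strc* were 5.18-fold and 8.57-fold lower and *Slc26a5* at least 1.31-fold lower, while *Ikzf2* was at 0.99 of its level. All 10 markers of other cochlear cells were measured, with sums between 310 and 344, most of it from the bright genes *Otos* and *Coch*. *Otof* and *Slc17a8*, genes of inner hair cells, were 1.60-fold and 1.33-fold lower than in untreated *Prestin*-*hDTR* mice. By quantitative RT-PCR with replicates, the authors found *Slc26a5*, *Ocm* and *Strc* significantly lower after DT in *Prestin*-*hDTR* mice. They found no significant difference for *Slc17a8*. In whole tissue, more macrophages and more of these RNAs per macrophage cannot be told apart.

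Sequences of 2 kinds carry the results that follow. The first are promoter windows just before the transcription start, from RefSeq in GRCm38.p6, which holds promoters for 25 of the 33 genes (30 promoters, 250 bases before to 50 after the start). The neighbouring lysozyme genes *Lyz1* and *Lyz2* gave the 2 largest folds of the set against untreated *Prestin*-*hDTR* mice, and the 60 bases before their starts are shown because they were identical at 59 positions. Over 250 bases before the start, set side by side without gaps, 152 were identical (60.8%). The capital marks the position at which the 60 bases differ.

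Lyz1, chr10:117292869-117292928, minus strand: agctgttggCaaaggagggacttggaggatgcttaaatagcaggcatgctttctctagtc
Lyz2, chr10:117282273-117282332, minus strand: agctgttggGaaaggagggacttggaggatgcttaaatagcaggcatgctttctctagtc

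Windows from genes of the receptor and lysosome groups are shown next because they hold the letters bound by PU.1, the factor that defines the macrophage lineage, whose own gene was not measured. The core GAGGAA, on either strand, occurred in 14 of the 30 promoters (46.7%) and in 28.3% of 32851 promoters of all genes. These 14 promoters belong to 12 of the 25 genes. Capitals mark the core in *Cd68*, *Ctss*, *Fcgr1* and *Laptm5*, and in the last 2 it stands on the opposite strand.

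Cd68, chr11:69666372-69666412, minus strand: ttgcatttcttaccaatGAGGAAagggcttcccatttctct
Ctss, chr3:95526605-95526645, plus strand: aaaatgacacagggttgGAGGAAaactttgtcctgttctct
Fcgr1, chr3:96294001-96294041, minus strand: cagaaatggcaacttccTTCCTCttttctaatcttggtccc
Laptm5, chr4:130913261-130913301, plus strand: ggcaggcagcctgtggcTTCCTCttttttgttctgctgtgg

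A longer element read jointly by PU.1 and IRF factors, GGAA and 2 bases further on GAAA, on either strand, was in 5 of the 30 promoters (16.7%) and in 2.72% of all. It can overlap the core. The 5 promoters belong to 4 of the 25 genes, *Cd68*, *Clec7a*, *Cybb* and *Fcgr2b*, because the same *Clec7a* element was counted for 2 starts. In *Cd68* and *Cybb* the element lay after the start. The windows of *Fcgr2b* and *Clec7a* show it on the opposite strand, in capitals.

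Fcgr2b, chr1:170976081-170976121, minus strand: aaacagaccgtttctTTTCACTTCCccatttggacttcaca
Clec7a, chr6:129472820-129472860, minus strand: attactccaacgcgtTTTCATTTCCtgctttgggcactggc

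For comparison, the TATA box TATAAA was in 5 of the 30 promoters (16.7%) and 13.6% of all, and the E-box CACGTG in 1 (3.33%) and 7.15% of all. Of the 5 genes that stood 2-fold above every control array, described next, *Cd68* alone had the core in its window, and *Fcer1g*, *Lyz1*, *Lyz2* and *Mpeg1* did not. A match of letters is a description of the window and not of a bound site.

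After DT, 18 of the 31 genes were higher by 2-fold or more in *Prestin*-*hDTR* mice than in untreated mice of the same genotype and 0 were lower, where 2.9% of all 20006 genes compared were higher and 1.52% were lower. Their median log2 ratio was 1.09, against -0.01 over all genes. Against DT-treated wild-type mice, 5 of 31 were higher and 0 were lower (1.52% and 1.95% of all genes), with a median of 0.52 against 0.01. Against untreated wild-type mice, 8 of 31 were higher and 0 were lower (2.15% and 2.09% of all genes), with a median of 0.70 against -0.03. These comparisons share the DT-treated *Prestin*-*hDTR* array, so they are not independent of each other. Counting any size of difference, 28, 29 and 27 of 31 genes were higher than in untreated *Prestin*-*hDTR*, DT-treated wild-type and untreated wild-type mice, against 47.4%, 52% and 44.7% of all genes. Of the 4 arrays, that of DT-treated *Prestin*-*hDTR* mice had the highest signal for 27 of 31 genes, where this held for 34.9% of all genes, and the exceptions were *Itgam*, *Mertk*, *Cybb* and *P2ry12*.

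Between DT-treated and untreated wild-type mice these genes differed less. There, 0 of 30 genes were higher by 2-fold and 1, *Cybb*, was lower (1.58% and 1.14% of all genes), and the median log2 ratio was 0.17 against -0.04 over all genes, with 20 of 30 higher by any size (39.8% of all genes). The transgene without DT went with 0 of 31 higher and 1 lower, again *Cybb* (1.06% and 2.49% of all genes). Its median was -0.22 against -0.01, with 3 of 31 higher by any size (46.4% of all genes). Most of the set was thus slightly lower in untreated mice with the transgene than without it, and the median fold over that array was the largest of the 3. The log2 ratio after DT was larger in *Prestin*-*hDTR* than in wild-type mice by a median of 0.89 over 30 genes, against 0.02 over all genes.

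**Figure D1:**
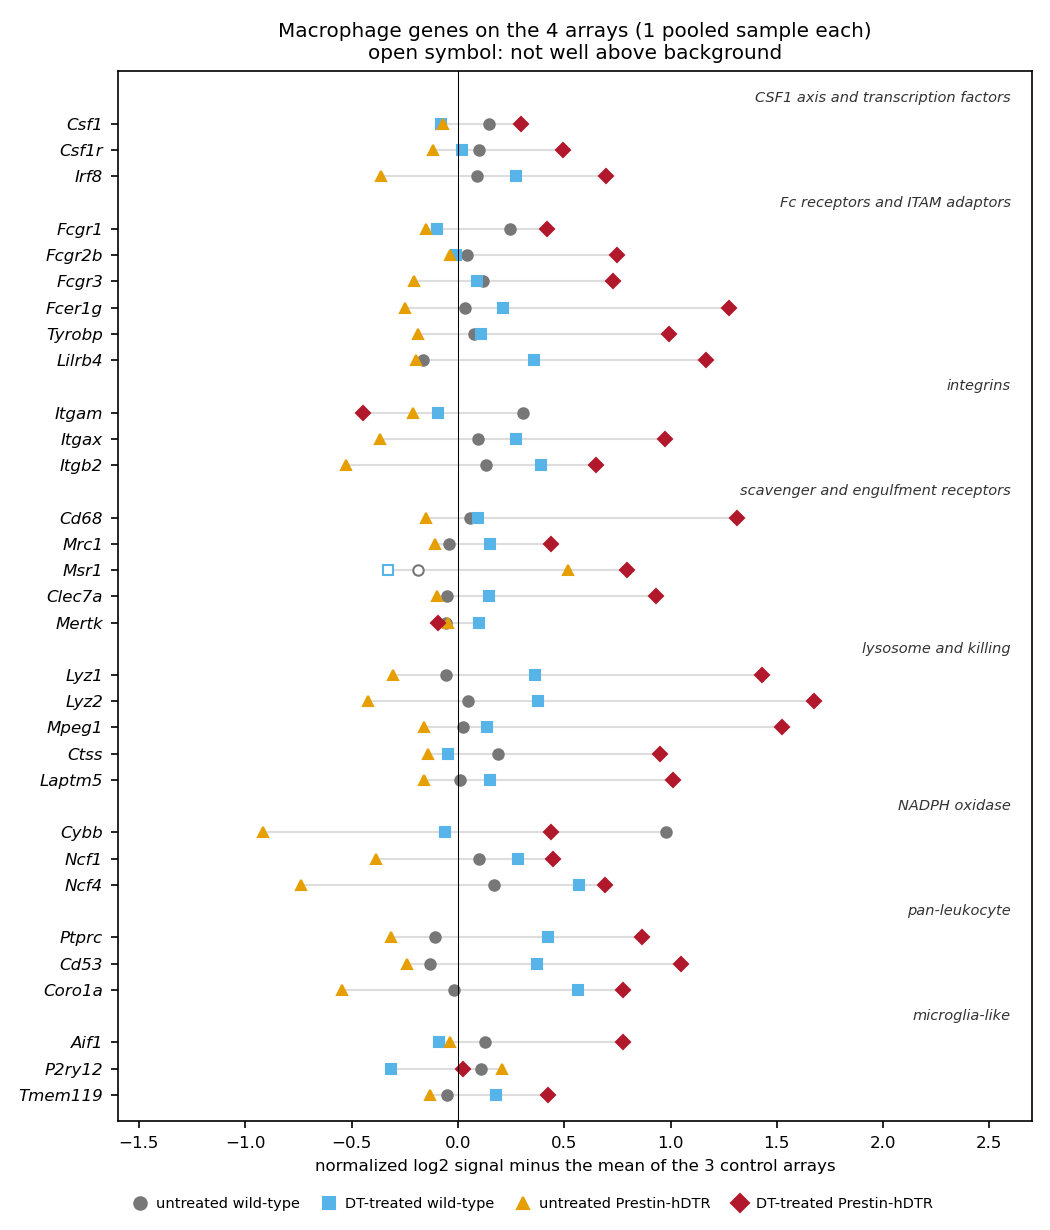
Normalized log2 signal of the 31 measured macrophage genes on each of the 4 arrays, minus the mean of the 3 control arrays of that gene (vertical line at 0); each point is 1 array, open points were not well above background, and genes are grouped by role. The DT-treated *Prestin*-*hDTR* array is farthest to the right for 27 of 31 genes, with *Lyz2* farthest, and untreated *Prestin*-*hDTR* is farthest to the left for 25.

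In the paragraphs that follow, the levels of a gene are given as log2 values in the order untreated wild-type, DT-treated wild-type, untreated *Prestin*-*hDTR*, DT-treated *Prestin*-*hDTR*. Folds are those of DT-treated *Prestin*-*hDTR* mice.

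The widest separation was in the lysosome and killing group, where 5 of 5 genes were 2-fold higher than in untreated *Prestin*-*hDTR* mice. *Lyz2*, the lysozyme of macrophages and granulocytes, lay at -0.93, -0.60, -1.40 and 0.70. That is 4.28-fold above untreated *Prestin*-*hDTR*, 2.46-fold above DT-treated wild-type and 3.09-fold above untreated wild-type mice. The control arrays themselves spanned 1.74-fold for this gene. *Lyz1*, its neighbour, which is known best from Paneth cells of the gut, lay at 1.88, 2.30, 1.63 and 3.37, or 3.32-fold, 2.10-fold and 2.80-fold higher. The 2 probes (mm9 chromosome 10, 116719175 to 116719234 for *Lyz2* and 116724862 to 116724921 for *Lyz1*) shared no run of 20 bases, and whether each reads the RNA of the other gene was not tested.

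*Mpeg1*, which encodes the pore-forming protein perforin-2 of phagosomes, had the largest distance to the highest control, 1.39 on the log2 scale. Its levels were 0.28, 0.39, 0.10 and 1.78, with control arrays within 1.23-fold of each other, and the folds were 3.21, 2.61 and 2.83. A second *Mpeg1* probe was well above background on the DT-treated *Prestin*-*hDTR* array alone. There it was at least 2.06-fold above DT-treated wild-type mice. It was 3.08-fold above untreated *Prestin*-*hDTR* mice, whose signal was not well above background but did not need to be raised. The cysteine protease *Ctss* (cathepsin S), which trims the invariant chain for antigen presentation, lay at 2.57, 2.33, 2.24 and 3.33, and was 2.13-fold, 1.998-fold and 1.70-fold higher. *Laptm5*, a lysosomal membrane protein of blood cells, lay at -1.59, -1.45, -1.76 and -0.59. It was 2.25-fold, 1.82-fold and 2.0-fold higher. Its second probe gave 2.12-fold, 1.63-fold and 1.76-fold, so against untreated wild-type mice that probe stayed under 2-fold.

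Lysosomal genes that every cell uses had smaller folds. Of 10 such genes, all measured, 9 were highest in DT-treated *Prestin*-*hDTR* mice, against 34.9% of all genes. Of the same 10, 0 were 2-fold higher than in untreated *Prestin*-*hDTR* mice, against 2.9% of all genes. The cathepsin gene *Ctsb* was 1.40-fold higher, *Hexa*, a subunit of hexosaminidase, was 1.33-fold higher, and the membrane protein *Lamp1* was 1.01-fold higher. Their summed signal was 189, 180, 182 and 215 times the 75th percentile on the 4 arrays.

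Among the scavenger and engulfment receptors, *Cd68*, the glycoprotein of late endosomes used to stain macrophages, stood apart. It lay at -0.26, -0.21, -0.46 and 1.0, so that the controls were within 1.19-fold and DT-treated *Prestin*-*hDTR* mice were 2.76-fold, 2.32-fold and 2.39-fold above them. A second *Cd68* probe (mm9 chromosome 11, 69478979 to 69479038) gave 3.10-fold, 2.39-fold and 2.18-fold. *Clec7a*, the beta-glucan receptor dectin-1, lay at -1.93, -1.73, -1.98 and -0.95 and was 2.04-fold above untreated *Prestin*-*hDTR* and 1.72-fold above DT-treated wild-type mice. The mannose receptor gene *Mrc1*, a marker of resident macrophages, did not reach 2-fold, with -1.09, -0.90, -1.16 and -0.61 and a fold of 1.46 over untreated *Prestin*-*hDTR* mice.

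*Mertk*, a receptor through which macrophages take up apoptotic cells and which other cells also express, differed little between the arrays. Its levels were -0.08, 0.07, -0.07 and -0.12, a fold of 0.97 over untreated *Prestin*-*hDTR* and 0.87 over DT-treated wild-type mice. *Msr1*, scavenger receptor A, was well above background only in the 2 *Prestin*-*hDTR* groups, at -5.27 untreated and -4.99 after DT, a fold of 1.21. Both wild-type arrays lay under their floor, and the DT-treated *Prestin*-*hDTR* array was at least 1.92-fold above untreated and at least 1.40-fold above DT-treated wild-type mice.

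Of the 6 Fc receptors, ITAM adaptors and their inhibitory counterpart, 3 reached 2-fold over untreated *Prestin*-*hDTR* mice. *Fcer1g*, the gamma chain shared by activating Fc receptors, lay at 0.55, 0.73, 0.27 and 1.79 and was 2.87-fold, 2.08-fold and 2.36-fold higher. *Tyrobp* (DAP12), the adaptor of TREM2 and related receptors, lay at 1.23, 1.27, 0.97 and 2.15, or 2.27-fold, 1.84-fold and 1.89-fold higher. Of the 2 adaptors, *Fcer1g* alone passed 2-fold against both wild-type arrays. *Lilrb4*, an inhibitory receptor, lay at -1.68, -1.16, -1.71 and -0.35, with folds of 2.57, 1.75 and 2.51. Its second probe gave 2.06, 1.62 and 1.79, so against untreated wild-type mice that probe stayed under 2-fold. This gene has a near-identical neighbour, and whether the probes tell them apart was not tested.

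The ligand-binding Fc receptors had smaller folds than the adaptor *Fcer1g*. *Fcgr3*, a low-affinity activating receptor, lay at -2.11, -2.13, -2.43 and -1.50 and was 1.91-fold, 1.56-fold and 1.53-fold higher. *Fcgr2b*, the inhibitory receptor, lay at -2.76, -2.81, -2.84 and -2.06 and was 1.72-fold, 1.69-fold and 1.63-fold higher. This probe was spotted repeatedly, and its 10 spots on the DT-treated *Prestin*-*hDTR* array, between -2.20 and -1.90, did not overlap those of any control array, of which the highest was -2.54. Such spots cover spot error and not the spread between mice, and how often other repeated probes separated in this way was not counted. The high-affinity receptor gene *Fcgr1* lay at -2.87, -3.21, -3.26 and -2.69, a fold of 1.48 over untreated *Prestin*-*hDTR* but 1.13 over untreated wild-type mice.

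Downstream of these receptors, 13 of 14 genes of ITAM signalling were measured, and 8 were highest in DT-treated *Prestin*-*hDTR* mice, against 34.9% of all genes. *Trem2*, the lipid-sensing receptor that pairs with *Tyrobp*, was 2.23-fold, 2.04-fold and 1.93-fold higher. The exchange factor *Vav1* was 2.16-fold above untreated *Prestin*-*hDTR* mice. The kinase *Syk* was 1.71-fold above that array but at 0.60 of its level in DT-treated wild-type mice.

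In the CSF1 group, the receptor had larger folds than the ligand, and neither reached 2-fold. *Csf1r* lay at 3.0, 2.93, 2.79 and 3.40 and was 1.53-fold, 1.39-fold and 1.32-fold higher. Its 2 other probes gave 1.57-fold and 1.08-fold over untreated *Prestin*-*hDTR* mice. The ligand *Csf1* lay at -0.50, -0.73, -0.72 and -0.35, a fold of 1.29, and its 10 spots in DT-treated *Prestin*-*hDTR* mice, from -0.47 to -0.19, overlapped those in untreated wild-type mice, from -0.57 to -0.44. The 2 other *Csf1* probes, which overlap each other on the transcript, went the opposite way, with folds of 0.91 and 0.94.

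*Irf8*, a transcription factor that macrophages, microglia and monocytes need, lay at -1.66, -1.47, -2.11 and -1.05. It was 2.09-fold above untreated *Prestin*-*hDTR* and 1.34-fold above DT-treated wild-type mice. Of 8 further macrophage transcription factors, 7 were measured and 0 were 2-fold higher than in untreated *Prestin*-*hDTR* mice, against 2.9% of all genes. *Irf5* was at 1.81-fold and *Runx1* at 1.24-fold. Among other cytokines and receptors of the CSF family, the second CSF1 receptor ligand *Il34* was at 1.06-fold and *Csf2rb*, the common beta chain, at 2.20-fold, and the cytokines *Csf2* and *Csf3* were not measured.

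**Figure D2:**
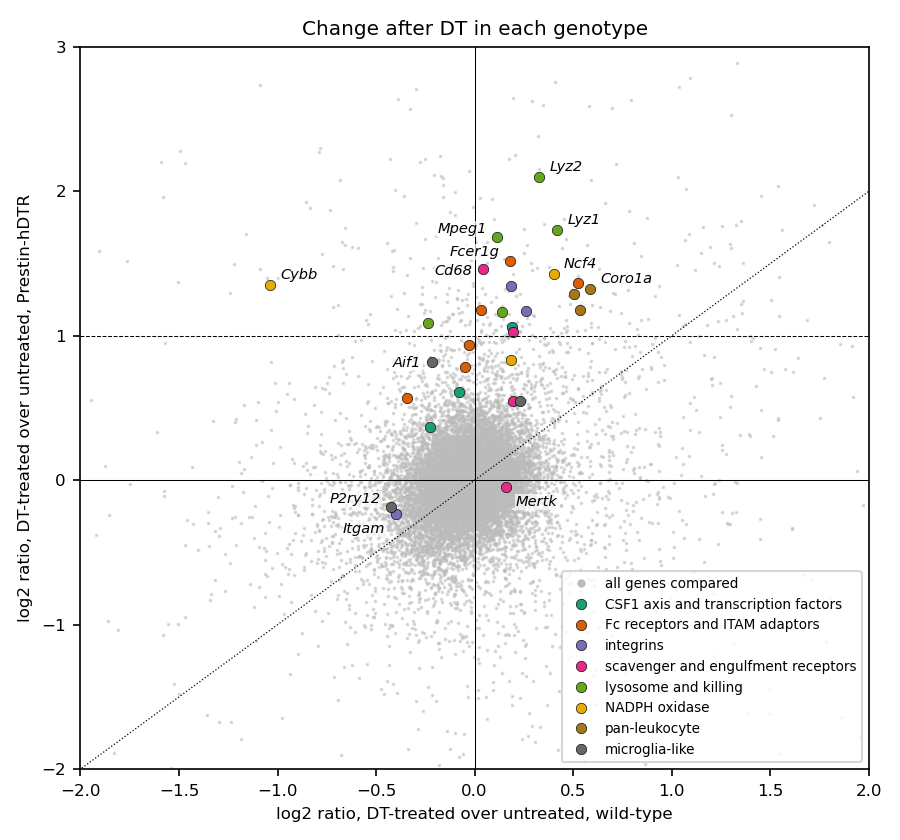
Log2 ratio of DT-treated over untreated mice in wild-type (x axis) and in *Prestin*-*hDTR* (y axis) for 30 macrophage genes, coloured by role, and for all 19313 genes compared in both, in grey; 86 of these lie outside the axes, the dotted line marks equal ratios and the dashed line a 2-fold rise in *Prestin*-*hDTR*. All but *Itgam*, *P2ry12* and *Mertk* lie above 0 on the y axis, and *Cybb* lies far to the left, at -1.04 in wild-type and 1.35 in *Prestin*-*hDTR*.

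The 5 genes at 2-fold or more above each of the other arrays were *Fcer1g*, *Cd68*, *Lyz1*, *Lyz2* and *Mpeg1*, against 1.07% of all measured genes. A less strict pattern, controls within 1.5-fold of each other and the DT-treated *Prestin*-*hDTR* array 1.5-fold or more above the highest of them, held for 11 of 31 genes and for 1.64% of all genes. These were *Fcgr2b*, *Fcgr3*, *Fcer1g*, *Tyrobp*, *Lilrb4*, *Cd68*, *Clec7a*, *Mpeg1*, *Ctss*, *Laptm5* and *Aif1*, most of them receptors, adaptors and lysosomal proteins. No gene of the NADPH oxidase, pan-leukocyte, integrin or CSF1 and transcription factor groups was among the 11.

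The genes of the phagocyte NADPH oxidase, which makes superoxide in phagosomes, differed most among the controls. *Cybb*, its catalytic subunit, lay at -2.99, -4.03, -4.88 and -3.53. It was 2.55-fold higher after DT in *Prestin*-*hDTR* mice, but among untreated mice it was 3.71-fold lower with the transgene than in wild-type, and 2.05-fold lower in DT-treated than in untreated wild-type mice, so the DT-treated *Prestin*-*hDTR* array lay within the range of the controls. *Ncf4*, a cytosolic subunit, lay at -0.85, -0.45, -1.76 and -0.33, which is 2.69-fold above untreated *Prestin*-*hDTR* and 1.09-fold above DT-treated wild-type mice. *Ncf1*, the organizer subunit, lay at -2.99, -2.80, -3.47 and -2.64, with folds of 1.78 and 1.12. For the group, the median range of the control arrays was 1.31 on the log2 scale, against 0.46 over the 31 genes and 0.17 over all genes.

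Of the partners of the oxidase, the membrane subunit *Cyba* was closer between the arrays. It was 1.21-fold above untreated *Prestin*-*hDTR* mice, while the GTPase *Rac2* of blood cells was 2.13-fold above that array and at 0.74 of its level in DT-treated wild-type mice.

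For the pan-leukocyte genes, DT-treated wild-type mice were the nearest control. *Ptprc*, the phosphatase CD45, lay at -4.22, -3.68, -4.42 and -3.24, 2.27-fold above untreated *Prestin*-*hDTR* and 1.36-fold above DT-treated wild-type mice. The tetraspanin *Cd53* lay at -3.88, -3.38, -3.99 and -2.70, with folds of 2.45 and 1.60. The actin regulator *Coro1a* lay at 0.48, 1.06, -0.05 and 1.27, with folds of 2.50 and 1.16. All of these are expressed by leukocytes in general, and none is limited to macrophages.

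The integrin genes split by probe. *Itgax* (CD11c) lay at -5.22, -5.03, -5.68 and -4.33 and was 2.54-fold and 1.62-fold higher. *Itgb2*, the beta chain that pairs with both alpha chains listed here, lay at -2.91, -2.65, -3.57 and -2.39, with folds of 2.26 and 1.19. For *Itgam* (CD11b), a standard marker of macrophages and neutrophils, the brightest probe went the other way, at 3.18, 2.78, 2.67 and 2.43, lowest in DT-treated *Prestin*-*hDTR* mice.

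The sequence of that probe and of the other *Itgam* probes is shown because they differ in content as well as in signal, with the mm9 position on chromosome 7. Capitals in the first, of which the first 30 of 60 bases are given, mark a run of 10 CA repeats.

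Itgam, brightest probe, chr7:135261755-135261814: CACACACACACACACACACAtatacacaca
Itgam, second probe, chr7:135260275-135260334: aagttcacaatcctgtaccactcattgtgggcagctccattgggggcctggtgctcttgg
Itgam, last probe, chr7:135212140-135212199: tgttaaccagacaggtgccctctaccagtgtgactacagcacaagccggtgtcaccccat

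Of all probes, 22 held 10 or more CA repeats, and 22 of 22 were lowest on the DT-treated *Prestin*-*hDTR* array, as were 35.2% of 23688 probes well above background on all 4 arrays. Their median levels of 2.75, 2.36, 2.21 and 2.03 had the same order as those of the brightest *Itgam* probe. Of 44 probes for the 33 genes, it was the only one to share a run of 20 bases or more with a probe of another gene, 23 of them in all. The part of the repeat in the *Itgam* signal was not tested. The second probe, without the repeat, lay at -4.56, -3.90, -4.31 and -3.78, highest in DT-treated *Prestin*-*hDTR* mice, at 1.44-fold over untreated *Prestin*-*hDTR*, 1.08-fold over DT-treated wild-type and 1.72-fold over untreated wild-type mice. The last of the 3 was well above background in the 2 untreated groups only, at -5.03 in wild-type and -5.65 in *Prestin*-*hDTR* mice. Fewer of all probes had this flag on the DT-treated arrays.

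**Figure D3:**
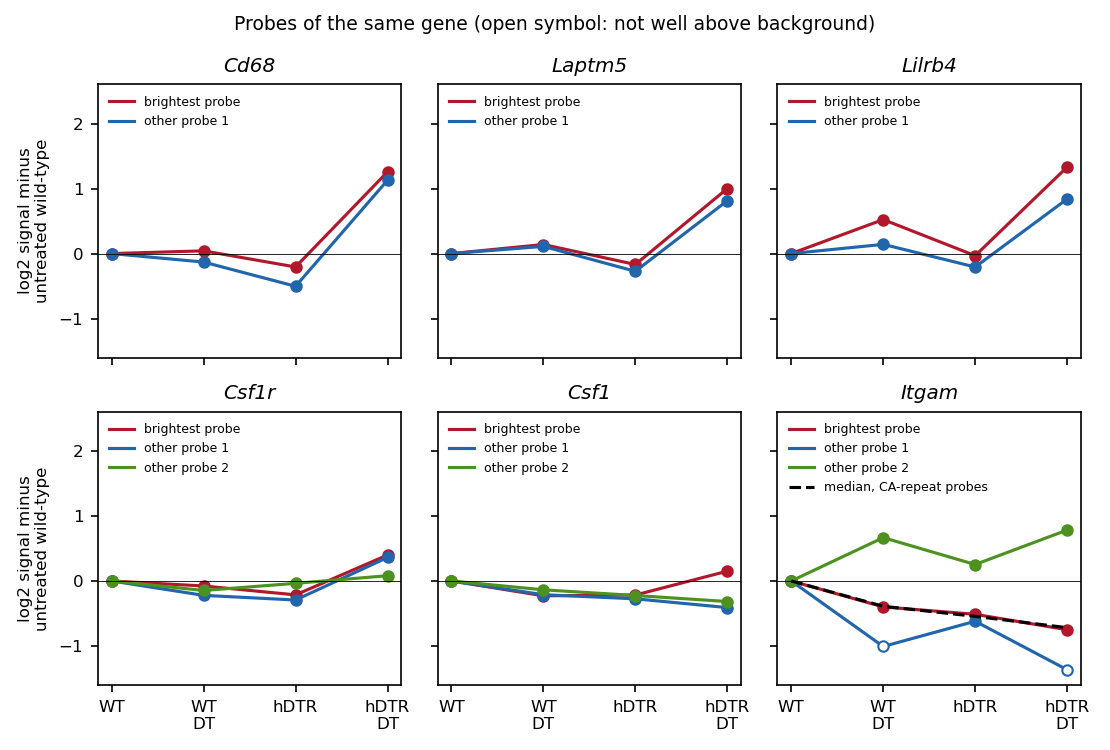
Log2 signal of each probe of 6 macrophage genes on the 4 arrays, minus its own level in untreated wild-type mice; lines join the arrays of 1 probe, open points were not well above background, and the dashed line is the median of the 22 CA-repeat probes. The probes of *Cd68*, *Laptm5* and *Lilrb4* are all highest at the DT-treated *Prestin*-*hDTR* array, but those of *Lilrb4* by unlike amounts (2.51-fold and 1.79-fold over untreated wild-type). The *Csf1* probes part at that array, and the brightest *Itgam* probe runs along the CA-repeat median.

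Of the 3 genes known from microglia, *Aif1* (IBA1), an actin-binding protein of all macrophages, lay at 0.21, -0.01, 0.04 and 0.86. It was 1.76-fold above untreated *Prestin*-*hDTR*, 1.82-fold above DT-treated wild-type and 1.57-fold above untreated wild-type mice, with the controls within 1.16-fold. The other two, which in brain mark homeostatic microglia, did not follow it equally. *Tmem119* lay at 0.83, 1.06, 0.75 and 1.30, a fold of 1.47 and 1.18. The ADP receptor gene *P2ry12* lay at -2.64, -3.06, -2.54 and -2.73, a fold of 0.88 over untreated *Prestin*-*hDTR* mice, and it was highest in those untreated mice.

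Markers of some other blood cells differed between the control arrays, and their values stand here beside the genes of the set that such cells also express. In the order of the levels above, the summed signal of 12 neutrophil markers was 38.8, 61.2, 14.1 and 24.2 times the 75th percentile, that of 9 erythroid markers 2.0, 6.39, 2.16 and 3.42, and that of 7 B cell markers 0.741, 1.42, 0.611 and 0.718. The sums of 6 T and NK cell markers, 3.14, 2.76, 2.49 and 2.76, and of 4 dendritic cell markers, 0.966, 1.07, 1.09 and 0.862, were closer together. All 12 neutrophil markers were measured, 11 of them well above background on all 4 arrays. The order DT-treated wild-type over untreated wild-type over untreated *Prestin*-*hDTR* held for 12 of 12 neutrophil markers, for 19 of the 31 macrophage genes and for 14.7% of all genes. Untreated *Prestin*-*hDTR* was the lowest of the 4 arrays for 25 of the 31 genes and for 22.2% of all. Neutrophils and their precursors are known to express *Cybb*, *Ncf1*, *Ncf4*, *Itgam*, *Itgb2*, *Coro1a*, *Ptprc* and *Lyz2*, and the part of such cells in these values was not tested.

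Most macrophage markers outside the set were also higher. Of 6 measured, 5 were highest in DT-treated *Prestin*-*hDTR* mice, against 34.9% of all genes. The exception, *Marco*, was at 0.83, 0.65 and 0.75 of its level in untreated *Prestin*-*hDTR*, DT-treated wild-type and untreated wild-type mice. The sum of the 6 was 3.85, 3.46, 3.47 and 7.57. *Emr1*, the array's older name of *Adgre1* (F4/80), was 2.28-fold, 2.05-fold and 2.07-fold higher, and *Ms4a7* was 2.65-fold, 2.62-fold and 2.50-fold higher. *Cx3cr1*, the fractalkine receptor of macrophages and microglia, was 1.82-fold, 1.90-fold and 1.56-fold higher. *Ccr2*, the receptor of blood monocytes, was 6.02-fold, 2.28-fold and 3.42-fold higher, on weak signals of -5.07, -4.49, -5.89 and -3.30. By quantitative RT-PCR, the authors found no significant rise of *Ccr2*, but they found a significant rise of *Mpeg1*, a gene of the set. The sum of 7 monocyte markers, 14.7, 16.9, 11.7 and 14.5, was not highest in these mice. Most of that sum came from *Ly6c1*, at 3.49, 3.54, 3.43 and 3.66, so it says little about the other markers. The sum of the 31 genes of the set was 42.6, 42.1, 34.5 and 65.3, and 33.5, 35.2, 28.1 and 59.9 without *Itgam*, whose brightest probe holds the CA repeat.

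**Figure D4:**
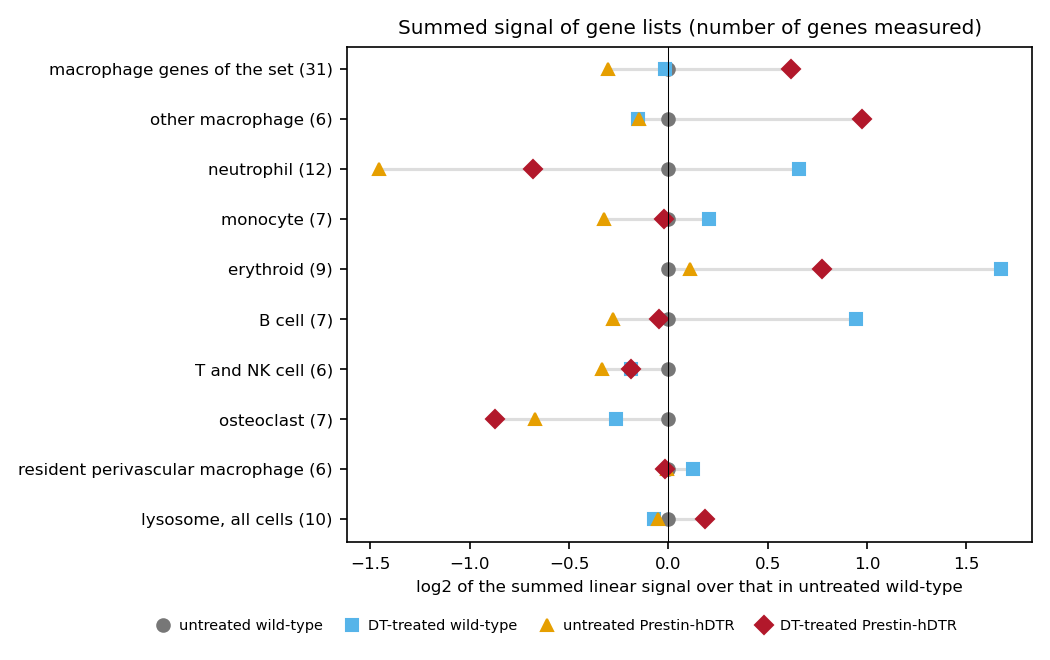
Log2 of the summed linear signal of 10 gene lists on each array over that in untreated wild-type mice (vertical line at 0), with the number of genes measured in brackets; each point is 1 array. The 2 macrophage lists at the top lie rightmost in DT-treated *Prestin*-*hDTR* mice, while neutrophil, erythroid and B cell markers lie rightmost in DT-treated wild-type mice.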

How the data were processed

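The RNA of each of 4 groups was hybridised to 1 Agilent array. The deposited intensity is the linear processed signal of Feature Extraction 11.5.1.1, from which the authors' software had subtracted the local background, without scaling between arrays. The mean and background intensity the authors deposited for each spot served 1 alternative, normexp with an offset of 50 (limma 3.58.1, R 4.3.3). The table of ratio values the authors deposited holds the same signal divided by 1 constant per array.

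Control spots (1377 of 44397) and outlier spots were left out, and spots of a probe were averaged, with a flag held where more than 0.5 of its spots had it. Arrays were scaled to the 75th percentile and log2 was taken. A gene was represented by its brightest probe well above background on at least 1 array. With 1 array per group no test was made, and 2-fold or more was called. The named genes are all members, and examples from the marker and pathway lists. The members and the lists were chosen with earlier results of these data known. The steps were tested on simulated data. Probe positions are in mm9, and promoter sequences are from RefSeq (GRCm38.p6). Python 3.11.15 with numpy 2.4.6, pandas 2.3.3 and matplotlib 3.10.9 was used. A further 10 alternatives were planned and 1, without CA-repeat probes, was added after the data were seen.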

Additional observations from a re-analysis of the deposited data

Results flagged for a closer look

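For 5 genes of the set, the signal was lower in DT-treated than in untreated wild-type mice and higher in DT-treated than in untreated *Prestin*-*hDTR* mice, by at least 1.1-fold each. The share of all genes with this pattern was not counted, so the 5 genes have no background to be read against. The difference between the genotypes was not tested, since each group has 1 array. For *Cybb*, the log2 ratio was -1.04 in wild-type and 1.35 in *Prestin*-*hDTR* mice, a difference of 2.39, and its untreated wild-type array was the highest of the 4. For *Ctss*, the ratios were -0.24 and 1.09, a difference of 1.33. *Aif1* had ratios of -0.22 and 0.82, a difference of 1.03. *Fcgr1* had ratios of -0.35 and 0.57, a difference of 0.91. *Csf1* had ratios of -0.23 and 0.37, a difference of 0.59, which its 2 other probes did not share, with folds of 0.91 and 0.94 in *Prestin*-*hDTR* mice.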

How the results depend on the processing

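Of 143 values (13 results under 11 alternative settings), 137 stayed within 1.5 times the reported count or within the median SD of repeated spots, 0 reversed and 6 moved. The median log2 ratio against DT-treated wild-type mice, 0.52 as reported, was 0.64 without a floor and 0.66 with the weaker flag for a detected probe. With normexp, the median was 0.97 against untreated *Prestin*-*hDTR* and 0.56 against untreated wild-type mice, the median difference between the genotypes was 0.79, and 0 genes in place of 1 were called in DT-treated against untreated wild-type mice. The count of genes changed by 2-fold ranged from 14 to 19 against untreated *Prestin*-*hDTR*, 5 to 6 against DT-treated wild-type and 6 to 12 against untreated wild-type mice, and 5 genes stood 2-fold above all other arrays in each setting. No paired analysis was possible because each group has 1 array and the labels give no replicate numbers. Genes near background, such as *Itgax*, *Msr1* and *Cybb*, rest on weak signals.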

Other observations

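Markers of macrophage states outside the set did not move alike. Of 7 microglial markers, *Fcrls* was 2.24-fold, 2.18-fold and 2.08-fold higher on the DT-treated *Prestin*-*hDTR* array than on those of untreated *Prestin*-*hDTR*, DT-treated wild-type and untreated wild-type mice. The purinergic-like receptor *Gpr34* was 1.58-fold, 1.64-fold and 1.37-fold and *P2ry13* 1.43-fold, 1.45-fold and 1.37-fold higher. *Sall1*, the transcription factor that marks microglia among macrophages, was at 0.96, 0.98 and 1.06 of its level on these arrays. *Siglech* was at 0.91, 0.89 and 0.82. *Slc2a5* was well above background in the untreated mice of both genotypes only, but fewer of all probes had this flag on both DT-treated arrays. The summed signal of the 7 markers, in the order untreated wild-type, DT-treated wild-type, untreated *Prestin*-*hDTR* and DT-treated *Prestin*-*hDTR*, was 30.8, 28.6, 27.9 and 26.4 times the 75th percentile. Most of that sum came from *Siglech*, so it says little about the other markers. Of the 7, 4 were highest in DT-treated *Prestin*-*hDTR* mice, against 34.9% of all genes. These were *Fcrls*, *Gpr34*, *P2ry13* and *Olfml3*, the last at 1.14-fold, 1.11-fold and 1.15-fold.

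Of 6 measured markers of resident perivascular macrophages, 1 was highest in DT-treated *Prestin*-*hDTR* mice, against 34.9% of all genes. It was *Stab1*, a scavenger receptor, at 1.40-fold, 1.23-fold and 1.25-fold. *Lyve1*, the hyaluronan receptor, was at 1.01, 0.92 and 0.78, and the lectin *Cd209f* at 0.54, 0.52 and 0.51 of its level on the other arrays. Their summed signal of 3.89, 4.23, 3.86 and 3.84 times the 75th percentile, in the same order, varied by less than that of the set.

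*Acp5*, the tartrate-resistant acid phosphatase of osteoclasts, which belong to the same lineage, lay at 1.82, 1.41, 0.30 and 0.06 in that order, and the summed signal of 7 osteoclast markers was 7.08, 5.89, 4.44 and 3.87. Both were lowest in DT-treated *Prestin*-*hDTR* mice. Among untreated mice, *Acp5* was already 2.86-fold lower with the transgene than in wild-type. After DT it was at 0.85 of its level in untreated *Prestin*-*hDTR* mice. Most of the sum came from *Ctsk* and *Acp5*, and 4 of the 7 markers were well above background on all 4 arrays. *Ctsk*, *Ocstamp* and *Oscar* were at 0.88, 0.97 and 1.02 of their levels in untreated *Prestin*-*hDTR* mice.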
